A study of Mus musculus with 15 samples.

Results

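The glutathione S-transferases are enzymes that join the tripeptide glutathione to reactive, electrophilic molecules, and 10 of their genes were followed here in mouse kidney tubule-like cells grown in 5 culture conditions. The genes are Gsta1, Gsta3 and Gsta4 of the alpha class, Gstm1, Gstm2, Gstm4 and Gstm5 of the mu class, Gstp1 of the pi class, Gstt1 of the theta class and Gsto1 of the omega class. They were taken by symbol, and all 10 were found among the 27179 genes of each of 4 tables of results. The 10 were chosen from a larger family with the values of these tables in view, and Gsta4 and Gstm2 were chosen from their measured differences between gels. The counts against 2D and all differences of Gsta4 and Gstm2 between gels are therefore descriptions, and nothing is read from their distance to the background of all genes.

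In the cell, glutathione transferases are dimers that bind glutathione beside a second, broader pocket, which is where the classes differ. The conjugates they form are pumped out of the cell, trimmed to a cysteine conjugate and acetylated to mercapturates, a route in which the kidney proximal tubule is a main site. Many of the genes are known targets of NRF2, a transcription factor that responds to electrophiles and oxidants through antioxidant response elements, and several alpha-class genes are high in kidney and liver.

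The cells were induced renal tubular epithelial cells (iRECs), which are fibroblasts turned into tubule-like cells by a small set of kidney transcription factors. Cells of 1 line were taken at passages 35, 48 and 53, and at each passage the same pool of cells was spread over all 5 conditions, kept in Renal Epithelial Growth Medium (REGM) and harvested on day 7. The 2D control was culture on plates. Matrigel, Fibrin and Collagen were gels of those materials, collagen being collagen I, into which cells were dispensed by hand and left to assemble. Printed cells were placed by bioprinting in fibrin and collagen I for guided growth, while the name of that table mentions collagen alone. Each condition had 3 libraries, 15 in all, and each table compared 3 libraries of 1 microenvironment with the same 3 libraries of 2D. The replicates are cultures of 1 line and not separate animals, so the p-values cover the spread between these cultures. The labels name no genetic change of the cells.

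The tables hold 1 row per gene and no values of single libraries, so each gene is given here by its base mean, its log2 fold change against 2D with the standard error (SE), and its adjusted p. The base mean is the mean normalised read count over the 6 libraries of a table. In the authors' deposited tables, the epithelial genes included Cldn4, a claudin, at a base mean of 5.44 to 53.2, and Krt19, a keratin, at 13210 to 30358. Of the 10 proximal tubule markers, the endocytic receptor gene Lrp2 had base means of 19301 to 24583 in the authors' deposited tables. The transporter genes Slc34a1, Slc5a2, Aqp1, Slc22a6 and Slc22a8 and the enzyme gene Miox had base means of at most 4.61, so 6 of the 10 proximal tubule markers were near 0. Fibroblast markers ran from Thy1 at 0 to 0.333 to Col1a1 at 141 to 196 in the authors' deposited tables, endothelial markers from Emcn at most 0.333 to Pecam1 at most 12.5, and Nphs1 of podocytes and Cd3e of T cells were listed at 0. Cd68, a macrophage gene, had base means of 327 to 944 in the authors' deposited tables beside 0.646 to 3.02 for the pan-leukocyte gene Ptprc, and its log2 fold change in Printed was 1.60 ± 0.23 (SE, adjusted p = 2.13e-09). Csf1r, the receptor gene for a macrophage growth factor, had base means of 322 to 722 in the authors' deposited tables, rose in Printed (0.71 ± 0.22) and fell in Matrigel (-1.31 ± 0.23) and Collagen (-1.50 ± 0.27). Itgam, an integrin gene of myeloid cells, had base means of 8.79 to 24.9 in the authors' deposited tables and rose in Fibrin (1.24 ± 0.40), and Adgre1, another macrophage gene, had base means of at most 1.25. Synpo, an actin-binding protein gene also used as a podocyte marker, had base means of 504 to 892, and Ttr of the liver list 4.94 to 81.2, in the authors' deposited tables. What these markers contribute to the values of the transferases was not tested.

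Before the values, the sequences show how far reads can tell the alpha genes apart. The first 60 coding bases, from GENCODE M21, are given from the start codon, with bases that differ from Gsta1 in capitals.
Gsta1: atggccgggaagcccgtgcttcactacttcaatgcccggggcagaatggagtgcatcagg
Gsta2: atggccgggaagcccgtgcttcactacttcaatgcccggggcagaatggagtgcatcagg
Gsta3: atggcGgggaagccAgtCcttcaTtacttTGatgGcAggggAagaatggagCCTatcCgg
Gsta4: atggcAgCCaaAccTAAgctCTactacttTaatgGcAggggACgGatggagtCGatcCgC
Gsta2, which is not among the 10, had no different base in this stretch, and its coding sequence was 98.0% identical to that of Gsta1 with a longest identical run of 196 bases. Gsta3 differed from Gsta1 at 13 of the 60 bases and Gsta4 at 19, and over the whole coding sequence their identities to Gsta1 were 75.3% and 67.3%. Of the 826 stretches of 50 bases in the Gsta1 transcript, 89.7% also occur in a transcript of another gene, most often Gm3776, while none of those of Gsta3 or Gsta4 do. How reads with several matches were counted is not given in the sources used here, so the values of Gsta1 are uncertain in this respect.

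Gsta4, on chromosome 9 from 78191966 to 78209349 of GRCm38, was higher than in 2D in all 4 microenvironments. Its enzyme is known for conjugating 4-hydroxynonenal, a product of lipid peroxidation. In the authors' deposited tables its base mean was 748 in Matrigel, 607 in Fibrin, 1054 in Collagen and 679 in Printed. The log2 fold changes of Gsta4 in the authors' deposited tables were 1.94 ± 0.19 in Matrigel (SE, adjusted p = 6.57e-21), 1.50 ± 0.28 in Fibrin (adjusted p = 6.86e-06), 2.50 ± 0.25 in Collagen (adjusted p = 3.05e-20) and 1.64 ± 0.23 in Printed (adjusted p = 1.86e-09). These are 2.84-fold to 5.67-fold increases, with Collagen highest and Fibrin lowest. Ordered by p in each of the authors' deposited tables, Gsta4 stood at place 11 in Matrigel, 165 in Fibrin, 11 in Collagen and 7 in Printed. The log2 difference of Gsta4 between Fibrin and Collagen was -1.00 ± 0.38 (SE, from the authors' deposited tables), and that between Collagen and Printed was 0.86 ± 0.34. Both belong to the pattern for which Gsta4 was chosen.

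Gsta3, on chromosome 1 from 21240565 to 21265575, rose in Matrigel and Fibrin. Its enzyme, in the mouse, is known for detoxifying the epoxide of aflatoxin. The base means of Gsta3 in the authors' deposited tables were 104 in Matrigel, 147 in Fibrin, 86.7 in Collagen and 45.8 in Printed. Against 2D, Gsta3 had log2 fold changes in the authors' deposited tables of 1.08 ± 0.30 in Matrigel (SE, adjusted p = 0.00966), 1.94 ± 0.30 in Fibrin (adjusted p = 2.65e-08), 0.96 ± 0.38 in Collagen (adjusted p = 0.0802) and -0.15 ± 0.32 in Printed (adjusted p = 0.956). Fibrin was thus 3.83-fold above 2D, while the value in Printed lay within its standard error of 0.

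Gsta1, on chromosome 9 from 78230669 to 78242683, rose in Collagen and Printed. It encodes a classical alpha-class subunit that also binds bilirubin and other hydrophobic molecules. Its base means were low in the authors' deposited tables, at 30.8 in Matrigel, 15.6 in Fibrin, 93.3 in Collagen and 73.4 in Printed. The log2 fold changes of Gsta1 in the authors' deposited tables were 0.82 ± 0.31 in Matrigel (SE, adjusted p = 0.0989), 0.34 ± 0.39 in Fibrin (adjusted p = 0.744), 2.45 ± 0.40 in Collagen (adjusted p = 1.37e-07) and 1.18 ± 0.32 in Printed (adjusted p = 0.0109). For Gm3776, whose transcript holds most of the 50-base stretches of Gsta1, the authors' deposited tables gave 0.63 ± 0.31, 0.20 ± 0.40, 0.66 ± 0.35 and 0.28 ± 0.21 in the same order, with adjusted p from 0.239 to 0.879. Its base means in the authors' deposited tables, 35.4, 21.1, 125 and 85.6, nevertheless stood in the same order over the tables as those of Gsta1, lowest in Fibrin and highest in Collagen. Gsta2 had base means of 477 to 1224 in the authors' deposited tables, and of its 4 log2 fold changes the one in Printed passed (1.14 ± 0.28, adjusted p = 0.00493).

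**Figure D1:**
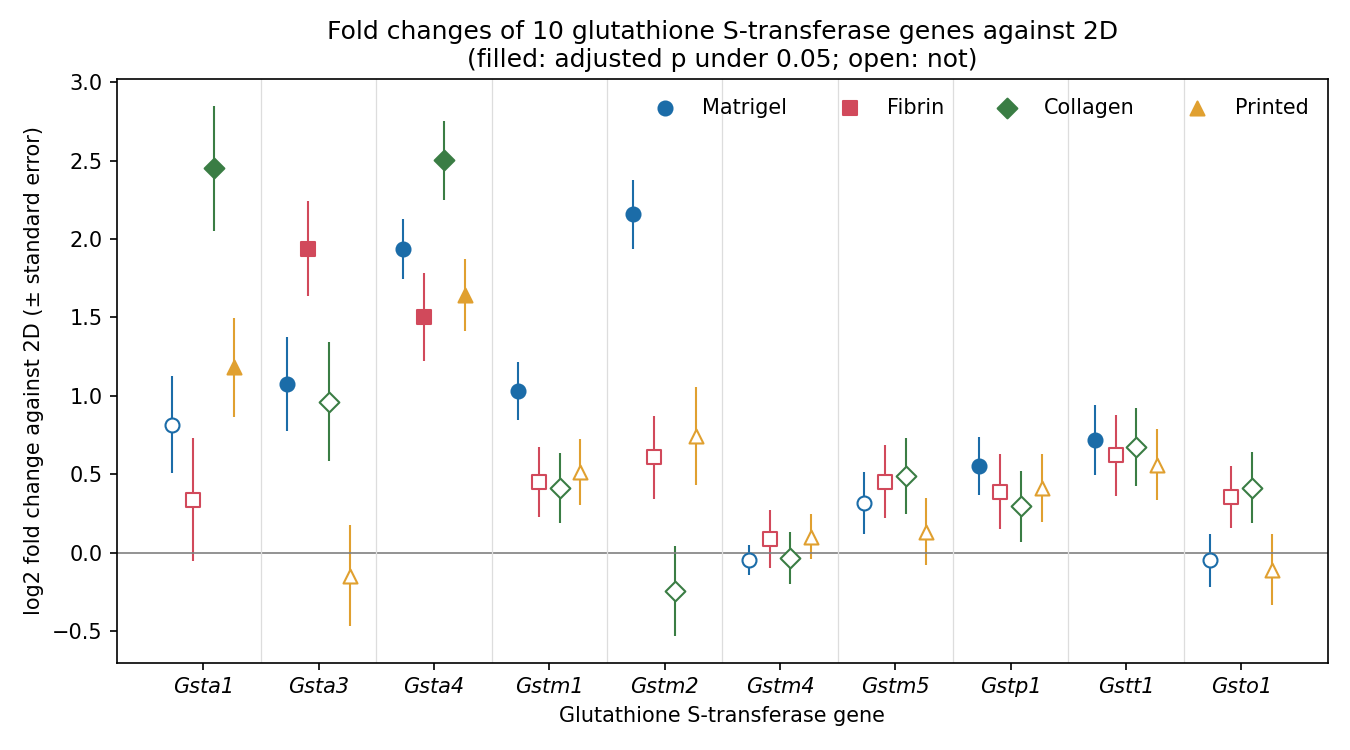
The log2 fold change against 2D (vertical axis, bars ± SE) is plotted for the 10 genes and 4 microenvironments from the authors' deposited tables, with filled symbols for an adjusted p under 0.05. All 4 symbols of Gsta4 lie between 1.50 and 2.50, Gstm2 reaches 2.16 in Matrigel alone, and the 4 symbols of Gstm4 lie near 0.

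Of the mu class, Gstm2 and Gstm1 rose in Matrigel. Mu-class enzymes act on a wide range of epoxides and quinones. The 7 mu genes of the mouse lie together on chromosome 3, from 107895854 to 108045179 of GRCm38, a span of 149 kb that holds no other protein-coding gene of RefSeq. From the first position onward the order is Gstm5, Gstm7, Gstm6, Gstm3, Gstm2, Gstm1 and Gstm4. The first 60 coding bases of 4 of them show the close relation of neighbours, with bases that differ from Gstm1 in capitals.
Gstm1: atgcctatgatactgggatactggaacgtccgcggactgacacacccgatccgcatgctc
Gstm2: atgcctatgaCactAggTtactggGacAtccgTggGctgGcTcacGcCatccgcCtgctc
Gstm3: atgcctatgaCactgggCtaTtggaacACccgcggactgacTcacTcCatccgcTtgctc
Gstm4: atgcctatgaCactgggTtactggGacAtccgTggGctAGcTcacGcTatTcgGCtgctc
Gstm2 differed from Gstm1 at 12 of these bases, Gstm3 at 9 and Gstm4 at 14. Over the whole coding sequence Gstm1 was 85.9% identical to Gstm2, 89.4% to Gstm3 and 80.7% to Gstm4. Of the 50-base stretches of Gstm1, 23.1% occur in transcripts of other genes, of those of Gstm2 9.36% and of those of Gstm3 28.8%. Of those of Gstm4 and Gstm5 none do.

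For Gstm2 the base means in the authors' deposited tables were 784 in Matrigel, 291 in Fibrin, 199 in Collagen and 421 in Printed. Its log2 fold changes in the authors' deposited tables were 2.16 ± 0.22 in Matrigel (SE, adjusted p = 2.19e-19), 0.61 ± 0.26 in Fibrin (adjusted p = 0.147), -0.25 ± 0.29 in Collagen (adjusted p = 0.67) and 0.75 ± 0.31 in Printed (adjusted p = 0.244). Matrigel was 4.46-fold above 2D, and the other 3 microenvironments did not pass. The log2 differences of Gstm2 from the authors' deposited tables were 2.40 ± 0.36 (SE) between Matrigel and Collagen, 1.55 ± 0.34 between Matrigel and Fibrin and 1.41 ± 0.38 between Matrigel and Printed. These differences chose the gene and carry no test.

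Gstm1 had the highest level of the 10 per kb of exon in every table. In the authors' deposited tables Gstm1 had base means of 17298 in Matrigel, 12844 in Fibrin, 12286 in Collagen and 13817 in Printed. The log2 fold changes of Gstm1 in the authors' deposited tables were 1.03 ± 0.18 in Matrigel (SE, adjusted p = 2.41e-06), 0.45 ± 0.22 in Fibrin (adjusted p = 0.241), 0.41 ± 0.22 in Collagen (adjusted p = 0.253) and 0.52 ± 0.21 in Printed (adjusted p = 0.217). Gstm1 in Matrigel was thus 2.04-fold above 2D.

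Gstm5 and Gstm4, at the ends of the cluster, did not pass in any table. Gstm5 had base means of 3323 to 3651 and log2 fold changes of 0.13 to 0.49 in the authors' deposited tables. Gstm4 was close to undetected, with base means of 0.328 to 1.98 in the authors' deposited tables, and had no adjusted p in any of them. Of the 3 mu genes outside the 10, Gstm3 rose in Matrigel, with 1.11 ± 0.32 (adjusted p = 0.012) in the authors' deposited table, at a base mean of 26.1. Gstm6 and Gstm7 did not pass in any table. The 3 mu genes that passed in Matrigel, Gstm3, Gstm2 and Gstm1, are neighbours in the cluster, at 67.8 kb, 85.8 kb and 116 kb from its first gene. The coding sequences of Gstm3 and Gstm1 share an identical run of 112 bases, and Gstm1 had a base mean of 17298 in Matrigel. What shared reads add to the value of Gstm3 was not tested.

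**Figure D2:**
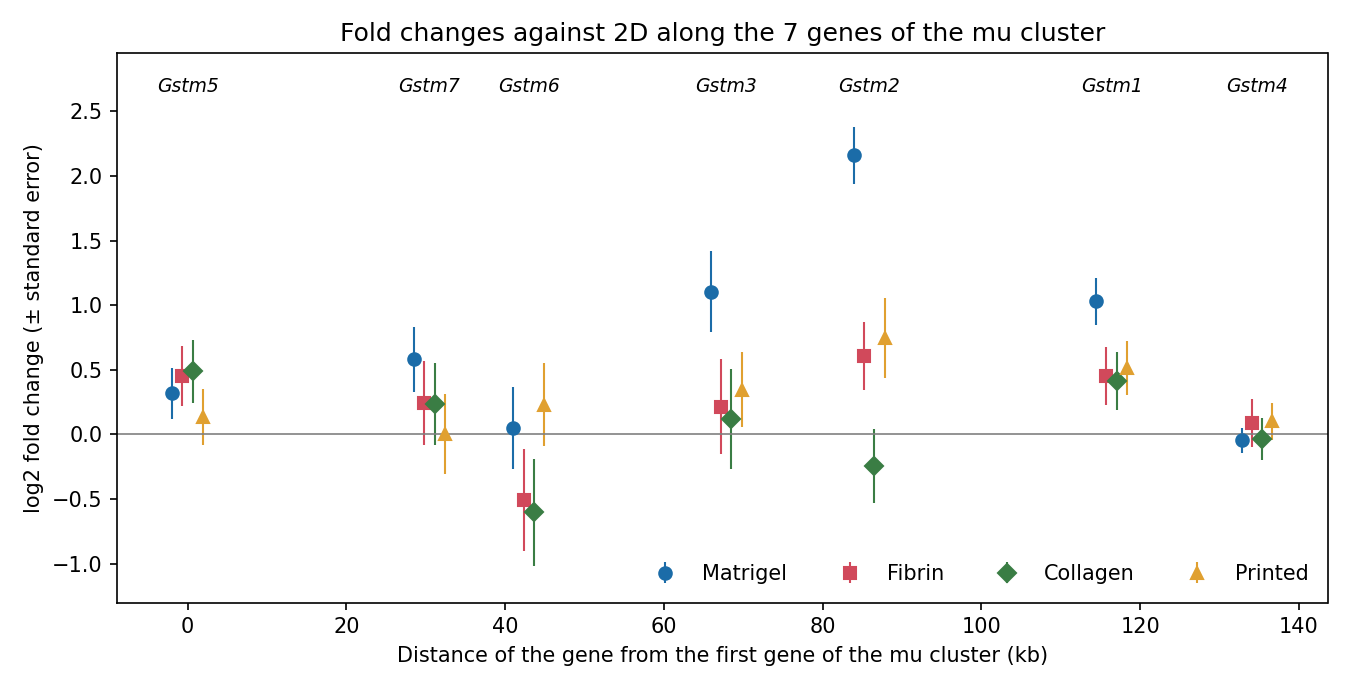
The log2 fold change against 2D (vertical axis, bars ± SE) from the authors' deposited tables is plotted for the 7 mu genes by distance in kb from Gstm5, the first gene of the cluster, with symbols of 1 gene set slightly apart sideways. In Matrigel Gstm3 (1.11), Gstm2 (2.16) and Gstm1 (1.03) stand above the other 4 genes, which lie between -0.05 and 0.58.

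Gstp1, Gstt1 and Gsto1 were abundant, with log2 fold changes below 1. Gstp1 encodes the pi-class enzyme, known also as a binding partner of the stress kinase JNK. Its base means were 4836 to 5670 in the authors' deposited tables, and its log2 fold changes were 0.55 ± 0.18 in Matrigel (SE, adjusted p = 0.0424), 0.39 ± 0.24 in Fibrin, 0.30 ± 0.23 in Collagen and 0.41 ± 0.22 in Printed, of which the first passed. Gstp2, whose coding sequence was 98.1% identical to that of Gstp1, had base means of at most 6.01 in the authors' deposited tables. Of the 50-base stretches of Gstp1, 62.3% also occur in a transcript of another gene, all of them in Gstp2.

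Gstt1, whose theta-class enzyme is known for acting on small halogenated compounds, had base means of 5768 to 6265 and log2 fold changes of 0.72 ± 0.22 in Matrigel (SE, adjusted p = 0.0261), 0.62 ± 0.26 in Fibrin (adjusted p = 0.127), 0.68 ± 0.25 in Collagen (adjusted p = 0.056) and 0.56 ± 0.22 in Printed (adjusted p = 0.198) in the authors' deposited tables. The 4 values of Gstt1 span 0.15 on the log2 scale, less than 1 SE, although Matrigel is the only one past the threshold. Gsto1, whose omega-class enzyme reduces dehydroascorbate and methylated arsenic, had base means of 7147 to 8311 and log2 fold changes of -0.05, 0.35, 0.41 and -0.11 in Matrigel, Fibrin, Collagen and Printed in the authors' deposited tables, none past the threshold.

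Counted over the 10 genes, 6 rose in Matrigel in the authors' deposited table (Gsta3, Gsta4, Gstm1, Gstm2, Gstp1 and Gstt1), beside 4.03% rising and 2.32% falling over all tested genes. In Fibrin 2 rose (Gsta3 and Gsta4), with 5.19% of all genes rising and 3.11% falling in the authors' deposited table. Collagen had 2 (Gsta1 and Gsta4), with 6.51% rising and 4.65% falling over all genes of the authors' deposited table. Printed had the same number (Gsta1 and Gsta4), with 2.51% and 0.675% in the authors' deposited table. Gsta4 was the only one of the 10 to pass in all 4. In DESeq2's test 0 of the 10 fell in any of the authors' deposited tables, and 0 were lower at an unadjusted p under 0.05, while 7, 5, 5 and 5 were higher at that level in Matrigel, Fibrin, Collagen and Printed. Over all genes with a p in the authors' deposited tables, 7.04%, 8.34%, 9.05% and 5.73% were higher at that level and 5.14%, 6.26%, 7.40% and 3.10% were lower. Of the calls at an adjusted p under 0.05, those of Gsta3, Gstp1 and Gstt1 in Matrigel and of Gsta1 in Printed were lost when the null spread was taken from the Wald scores themselves. Gstp1 and Gstt1 in Matrigel and Gsta1 in Printed also did not pass at an adjusted p under 0.01, and Gstp1 did not when p was adjusted over every gene with a p. Markers of the tubule moved in Matrigel too: 4 of the 10 proximal tubule markers rose there in the authors' deposited table (Lrp2, Cubn, Slc27a2 and Kap) and 0 fell, beside 1, 1 and 0 rising in Fibrin, Collagen and Printed, with 1 falling in Collagen (for both counts of 0, DESeq2's test also gave 0 at an unadjusted p under 0.05). Of the 10 proximal tubule markers, 4 had an adjusted p in each of Matrigel, Fibrin and Collagen and 5 in Printed, so the rest could not be called. In Matrigel 3 of 8 epithelial markers rose (Epcam, Cdh1 and Cldn7) in the authors' deposited table, beside 0 in Fibrin, 0 in Collagen, where 1 fell, and 2 in Printed. At an unadjusted p under 0.05 in DESeq2's test, 2 epithelial markers were higher and 2 lower in Fibrin, and 0 higher in Collagen. Their part in the counts of the transferases was not tested. The median log2 fold change of the 10 in the authors' deposited tables was 0.77 in Matrigel, 0.45 in Fibrin, 0.45 in Collagen and 0.46 in Printed, beside -0.01, 0.00, 0.00 and 0.01 over all genes with a p. Of the 10, 9 had an adjusted p in each table, and the count covers all 10. The 4 comparisons share the 3 libraries of 2D, so the values stand side by side and their likeness is not a result. In RNA of whole cultures, fewer cells that express a gene and less of its RNA per cell cannot be told apart.

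The levels themselves were set side by side per kb of exon. With the base mean as the midpoint of both conditions, each table's fold change gives a level in 2D and a level in the microenvironment, and the 4 tables give 4 values for the same 2D libraries. From the authors' deposited tables the median level in 2D, in normalised reads per kb of exon, was 8130 for Gstm1, 6161 for Gsto1, 5533 for Gstp1, 3160 for Gstt1, 3118 for Gstm5, 324 for Gsta4, 217 for Gstm2, 38.6 for Gsta3, 29.2 for Gsta1 and 0.536 for Gstm4. The 5 most abundant genes thus came from the mu, omega, pi and theta classes, and the 3 alpha genes lay below them. Of the 50-base stretches of Gsta1, Gstp1, Gstm1 and Gstm2, 89.7%, 62.3%, 23.1% and 9.36% also occur in transcripts of other genes. The levels per kb take no account of this, and how reads with several matches were counted is not given. The places of these genes in the order are therefore uncertain in this respect. Of neighbours in this order, Gstt1 and Gstm5 overlapped in their ranges over the authors' deposited tables (3008 to 3216 and 3030 to 3181), as did Gsta3 and Gsta1 (31.0 to 43.1 and 15.8 to 51.4). These ranges span tables and not cultures, whose spread is not analysed here. In Collagen the level of Gsta4 from the authors' deposited table was 1835 per kb, and in Matrigel that of Gstm2 was 1075 per kb, both still below the 3118 of Gstm5 in 2D.

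**Figure D3:**
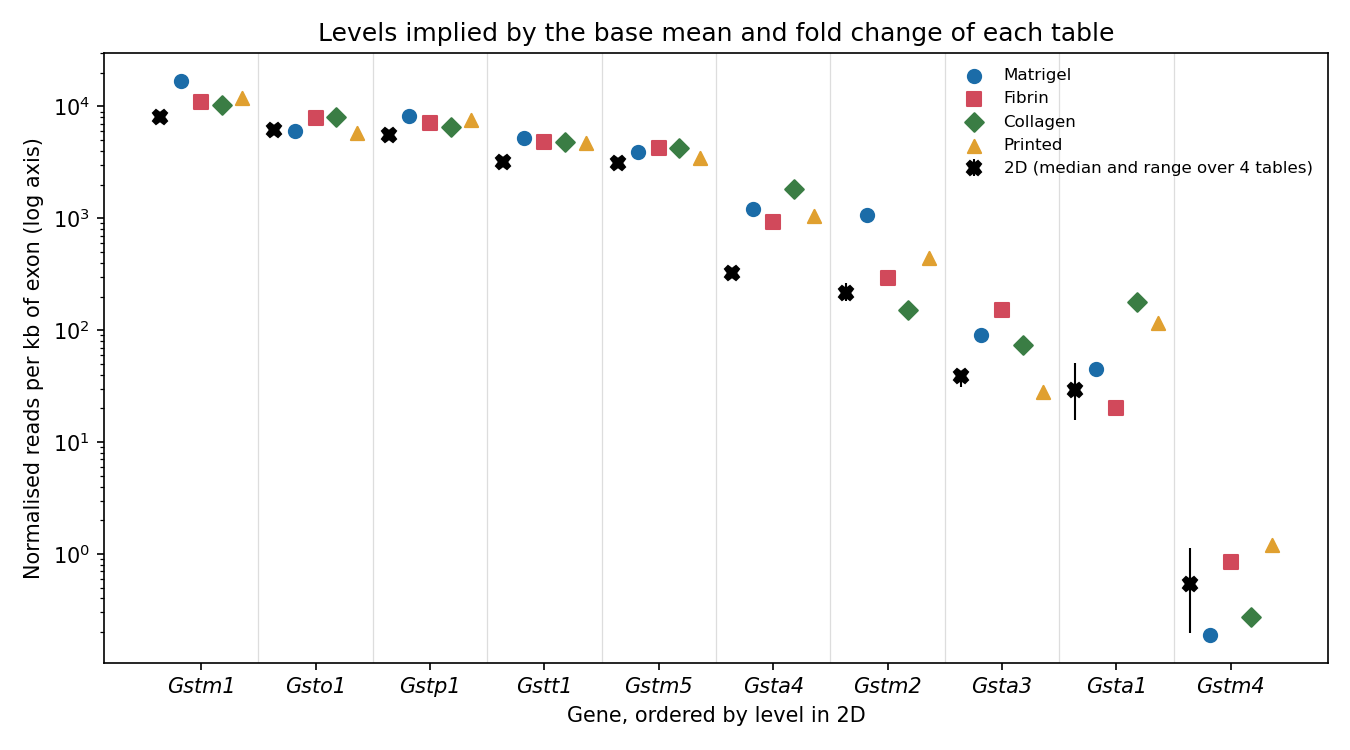
Levels in normalised reads per kb of exon (vertical log axis) implied by the authors' deposited tables are plotted for the 10 genes, ordered by level in 2D, with the cross and bar for the median and range over 4 tables in 2D. The 5 genes on the left have symbols and medians at 3118 or more, while Gstm4 lies at or below 1.20.

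The same arithmetic shows where a table's fold change and its base mean differ. Taking the level in 2D from the other 3 tables, the base mean of each of the authors' deposited tables gives a second log2 ratio. For Gsta4 the second ratios were 1.90, 1.50, 2.50 and 1.72 in Matrigel, Fibrin, Collagen and Printed, within 0.08 of the fold changes in the authors' deposited tables. For Gstm2 they were 2.54 in Matrigel, 0.04 in Fibrin, -1.38 in Collagen and 1.40 in Printed, so that the spread between gels was wider by base means than by the fold changes of the authors' deposited tables. For Gsta1 they were 0.18 in Matrigel, -3.58 in Fibrin, 2.88 in Collagen and 2.48 in Printed, beside 0.34 for Fibrin in the authors' deposited table. The -3.58 rests on a remainder of 2.41 normalised reads in Fibrin. The lowest base mean of Gsta1 allows at most about 31.3 reads in 2D, while Printed implied 44.9. The inputs thus disagree, and the sign in Fibrin is not read. For Gsta3 in Printed the ratio was -1.00, beside -0.15 in the authors' deposited table. Where the base mean reached at least 100, the median distance over genes between both values was 0.06 to 0.13 on the log2 scale, depending on the table, and over genes with a base mean of 10 to under 100, where Gsta1 lies, it was 0.17 to 0.26. The levels of Gsta1 in 2D from the authors' deposited tables differed 3.25-fold between the lowest and highest table, and those of Gsta4 1.06-fold. Whether the authors shrank the fold changes towards 0 is not given in the sources used here. Gstm4, at base means of at most 1.98, had standard errors of 0.10 to 0.18 in the authors' deposited tables. Its median level in 2D, 0.915 reads, also lay above the 0.656 that its lowest base mean allows. If the fold changes were shrunken, those of low genes, and the levels per kb computed from them, understate the differences. The reason for these gaps was not tested.

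**Figure D4:**
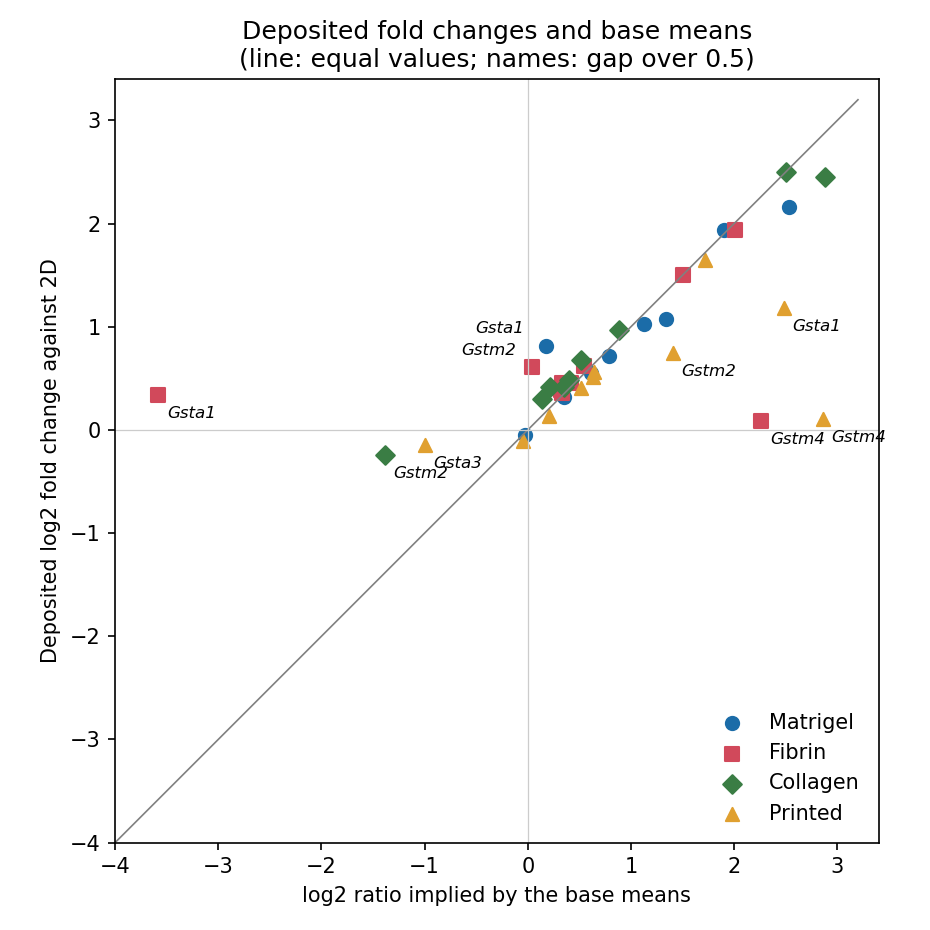
The log2 fold change of the authors' deposited tables (vertical axis) is plotted against the log2 ratio implied by the base means (horizontal axis) for the 38 values of the 10 genes that have both, with a line at equality. Points of Gsta1, Gsta3, Gstm2 and Gstm4 lie over 0.5 from the line, with Gsta1 in Fibrin farthest at -3.58 against 0.34.

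Differences between microenvironments were tested for the 8 genes other than Gsta4 and Gstm2, from the fold changes and standard errors of both tables. The test is the difference over the root of the summed squared SE with a two-sided normal p, adjusted by Benjamini-Hochberg over all genes of a pair. The 2D libraries are in both tables, which makes this SE too wide. These 8 genes were also chosen with the values of the tables in view, so the tests are not independent of that choice. Nothing is read from the distance of their counts to the shares of all genes given beside them. Over 8 genes and 6 pairs, 2 of 48 differences passed. Gsta3 was higher in Fibrin than in Printed by 2.08 ± 0.44 on the log2 scale (SE, adjusted p = 0.000713, from the authors' deposited tables), the 1 of 8 genes to pass in that pair, where 1.05% of all genes did. Gsta1 was lower in Fibrin than in Collagen, with a log2 difference of -2.11 ± 0.56 (SE, adjusted p = 0.0366, from the authors' deposited tables), again 1 of 8, where 0.477% of all genes passed. By this normal test 0 of 8 passed between Matrigel and Fibrin (0.886% of all genes), Matrigel and Collagen (0.329%), Matrigel and Printed (0.435%) and Collagen and Printed (0.662%), with 2, 2, 1 and 2 of the 8 at an unadjusted p under 0.05. No difference passed when genes with a base mean under 100 in either table were left out, since Gsta1 and Gsta3 fall under it in those pairs.

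For Gstm1 the log2 differences of Matrigel from Fibrin, Collagen and Printed were 0.58, 0.62 and 0.51 from the authors' deposited tables, with unadjusted p of 0.0459, 0.0327 and 0.0657 and adjusted p of 0.911 or more. For Gstt1 the 6 differences ran from -0.06 to 0.15 on the log2 scale, and their 95% intervals lay within -0.76 to 0.78. For Gstp1 they ran from -0.11 to 0.26, with intervals within -0.73 to 0.83. For Gsto1 they ran from -0.46 to 0.52, with intervals within -1.02 to 1.15.

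The promoters, from RefSeq with build GRCm38.p6, were read for 9 of the 10 genes, Gsta4 being the tenth. Windows of 300 bases, from 250 before to 50 after the start of transcription, were searched on both strands for the core of the antioxidant response element (TGACNNNGC), the AP-1 site (TGANTCA) and the core of the xenobiotic response element (GCGTG). The 250 bases before the start are shown for Gsta3 and Gstm5, the only ones of the 9 with a match to TGACNNNGC. They are also shown for Gstm2, which, like Gstm4, Gstt1 and Gsto1, holds none of the 3 motifs. Capitals mark the antioxidant element core and the AP-1 site.
Gsta3: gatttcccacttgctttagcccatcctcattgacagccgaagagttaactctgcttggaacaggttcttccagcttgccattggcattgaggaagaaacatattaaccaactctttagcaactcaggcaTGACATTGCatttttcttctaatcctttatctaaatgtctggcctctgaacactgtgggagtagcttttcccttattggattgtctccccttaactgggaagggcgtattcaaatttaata
Gstm5: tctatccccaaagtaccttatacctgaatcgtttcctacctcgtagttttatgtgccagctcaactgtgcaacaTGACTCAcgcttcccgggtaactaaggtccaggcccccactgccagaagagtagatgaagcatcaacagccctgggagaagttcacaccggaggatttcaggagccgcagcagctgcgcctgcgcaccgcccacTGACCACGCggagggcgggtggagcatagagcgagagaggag
Gstm2: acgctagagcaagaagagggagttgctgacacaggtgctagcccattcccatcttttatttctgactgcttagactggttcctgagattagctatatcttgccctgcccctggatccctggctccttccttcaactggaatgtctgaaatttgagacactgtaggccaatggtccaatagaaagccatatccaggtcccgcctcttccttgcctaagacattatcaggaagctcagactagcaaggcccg
These stretches are chr1:21240335-21240584 on the plus strand for Gsta3, chr3:107895604-107895853 on the plus strand for Gstm5 and chr3:107986421-107986670 on the minus strand for Gstm2. The stretch of Gsta3 runs past the first base of the gene given above, 21240565. Its positions are therefore counted from a later start of transcription. Gsta3 holds TGACATTGC from base -121 to -113, and Gstm5 holds TGACCACGC from -42 to -34, counted from -1 just before the start. The core occurs in 12.5% of all 27025 promoters searched. Gstm5 also holds an AP-1 site from -176 to -170, as does Gstp1 from -74 to -68, and this site occurs in 7.93% of all promoters. In Gstp1 the site and the bases after it read TGAGTCAGC, which would match TGACNNNGC but for a G in place of the C after TGA. Other forms of the antioxidant core were not searched. The match of Gstm5 to the antioxidant core overlaps a match to the xenobiotic core on the other strand, and so does its AP-1 site. The xenobiotic core, which 32.5% of all promoters hold, was found in those of Gsta1, Gstm1, Gstm5 and Gstp1. The window of Nqo1, a known NRF2 target, was searched too and held none of the 3 motifs. A missing match in this window therefore does not tell whether a gene responds to NRF2. Of the 2 genes with a match to TGACNNNGC, Gsta3 rose in 2 tables and Gstm5 in 0, with adjusted p of 0.198 or more in the authors' deposited tables and 1 of its 4 unadjusted p under 0.05.

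Genes with the pattern most like that of Gsta4 were Nqo1, Krt5 and Nefh, by Euclidean distance over the 4 log2 fold changes among 748 genes with base means of 100 or more and a log2 change of at least 1 in some table. Nqo1 encodes a quinone reductase and a textbook NRF2 target. Nqo1 had log2 fold changes of 1.94, 1.12, 2.39 and 1.40 in Matrigel, Fibrin, Collagen and Printed in the authors' deposited tables, all past the threshold, at a distance of 0.46 from Gsta4. Krt5, a basal keratin gene, was at 0.47 and Nefh, a neurofilament gene, at 0.59. For Gstm2 the nearest were Cyp4a10, a fatty acid hydroxylase gene, at 0.87, Cyp39a1, an oxysterol hydroxylase gene, at 0.87 and Ybx2, an RNA-binding protein gene, at 1.01. Cyp4a10 had log2 fold changes of 2.07, 0.25, -0.20 and -0.04 in the authors' deposited tables, with Matrigel alone past the threshold. Gsta4 and Gstm2 were chosen from these same values, so the likeness is a description. What lies behind it was not tested.

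**Figure D5:**
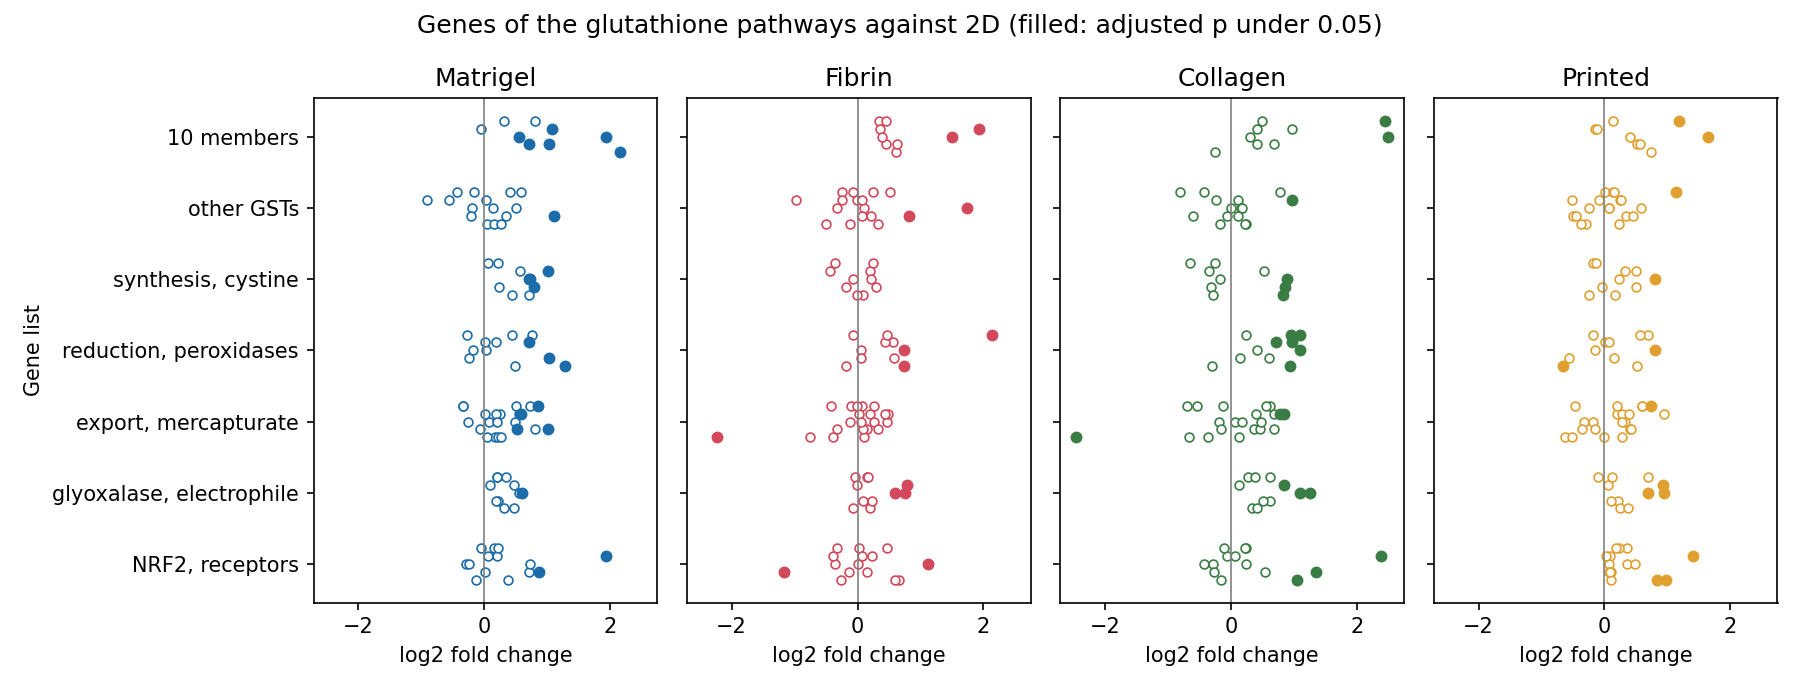
The log2 fold change against 2D (horizontal axis) from the authors' deposited tables is plotted for genes with an adjusted p in 7 lists, 1 panel per microenvironment, filled where the adjusted p is under 0.05. Filled points lie to the right of 0 in most lists, with Anpep at -2.23 in Fibrin and -2.46 in Collagen on the left.

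The rest of the glutathione system was counted by lists, beside 4.03%, 5.19%, 6.51% and 2.51% of all tested genes rising and 2.32%, 3.11%, 4.65% and 0.675% falling in Matrigel, Fibrin, Collagen and Printed. These shares are of genes with an adjusted p, while each list count covers all its genes. In the same order, 16, 17, 15 and 19 of the other transferases had an adjusted p, and all 10 synthesis genes. So did 12, 11, 11 and 11 of the reduction genes and 22, 21, 21 and 21 of the export genes. In the glyoxalase list it was 11 in each, and in the NRF2 list 14, 15, 14 and 15. The rest could not be called. Of 19 other transferase genes, 1 rose in Matrigel (Gstm3), 2 in Fibrin (Mgst1 and Mgst2), 1 in Collagen (Mgst2) and 1 in Printed (Gsta2) in the authors' deposited tables, and 0 fell, with 1 lower in each at an unadjusted p under 0.05 in DESeq2's test. Mgst1, a membrane-bound transferase, was at 1.74 ± 0.32 (SE, adjusted p = 5.94e-06) in Fibrin and at -0.56, -0.43 and -0.37 in Matrigel, Collagen and Printed in the authors' deposited tables. Of 10 genes for glutathione synthesis and cystine supply, 4 rose in Matrigel, 0 in Fibrin (0 at an unadjusted p under 0.05), 3 in Collagen and 1 in Printed in DESeq2's test in the authors' deposited tables, beside the same shares of all genes. The log2 fold change was positive for 10, 5, 4 and 6 of these 10 genes in Matrigel, Fibrin, Collagen and Printed. Their median log2 fold changes were 0.64, 0.04, -0.21 and 0.19 in the same order. Gclc, the catalytic subunit of the rate-limiting ligase, was at 0.72, 0.22, 0.89 and 0.81 in the 4 authors' deposited tables, of which Fibrin did not pass. Cth, which makes cysteine from cystathionine, rose in Matrigel with 1.01 ± 0.23 in the authors' deposited table.

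Of 15 genes for glutathione reduction and peroxidases, 3 rose in Matrigel, 3 in Fibrin, 6 in Collagen and 1 in Printed, where Gpx3 fell, in the authors' deposited tables, beside the 4.03%, 5.19%, 6.51% and 2.51% of all genes. Gsr, the glutathione reductase gene, rose in all 4 of the authors' deposited tables, with log2 fold changes of 1.03, 0.74, 1.09 and 0.80. Glrx, a glutaredoxin gene, rose in Fibrin (2.14 ± 0.31) and Collagen (1.10 ± 0.35) in the authors' deposited tables, and Gpx2, a peroxidase gene, rose in Matrigel (1.28 ± 0.30) at a base mean of 20.1. In Fibrin, Collagen and Printed the base means of Gpx2 were 2.57, 4.36 and 4.51. Gpx2 had no adjusted p there and could not be called. Of 27 genes for export of conjugates and mercapturate steps, 4 rose in Matrigel, 0 in Fibrin (1 higher and 2 lower at an unadjusted p under 0.05 in DESeq2's test), 2 in Collagen and 1 in Printed in the authors' deposited tables, beside the same shares of all genes. Anpep, an aminopeptidase gene of the brush border, fell in Fibrin (-2.23 ± 0.35) and Collagen (-2.46 ± 0.35) in the authors' deposited tables. Acy3, which removes the acetyl group of mercapturates, rose in Matrigel (1.02 ± 0.21) in the authors' deposited table.

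Of 12 genes for glyoxalases and other enzymes that act on electrophiles, 1 rose in Matrigel and 3 in each of Fibrin, Collagen and Printed in the authors' deposited tables, beside the 4.03%, 5.19%, 6.51% and 2.51% of all genes. Esd, which hydrolyses S-formylglutathione, rose in all 4 of the authors' deposited tables, by 0.60, 0.60, 1.26 and 0.70, and Akr1b8, an aldo-keto reductase gene, rose in Fibrin, Collagen and Printed. Of 16 genes of the NRF2 and xenobiotic receptor list, 2 rose in Matrigel, 1 in Fibrin, 3 in Collagen and 3 in Printed in the authors' deposited tables, while Cyp1a1 fell in Fibrin. Srxn1, a sulfiredoxin gene and NRF2 target, was at 0.86 in Matrigel, 0.59 in Fibrin and 0.84 in Printed in the authors' deposited tables, with an adjusted p of 2.42e-07 in Collagen, and Hmox1, the heme oxygenase gene, at 0.38, 0.47, 1.05 and 0.97 in Matrigel, Fibrin, Collagen and Printed. Hmox1 passed in Collagen and Printed and Srxn1 in Matrigel, Collagen and Printed. Cyp1a1, a target of the aryl hydrocarbon receptor, was at -1.17 ± 0.40 (SE, adjusted p = 0.0423) in Fibrin in the authors' deposited table.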

How the data were processed

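RNA was measured in 15 libraries of 1 mouse cell line. The submitters' processing notes name build mm10 and, in no stated order, DESeq2 1.22.1, featureCounts 1.6.3, STAR 2.6.0b-1, Trim Galore 0.4.3 and FastQC 0.72. Annotation, strand setting and model terms: not given in the sources used here. From the authors come 4 deposited tables. The base mean is a deposited signal, the mean of counts divided by size factors; the deposited fold change and standard error are log2 values; the deposited Wald statistic is a score; and each deposited p-value is two-sided, with an adjusted p-value beside it. The depth of single libraries is unknown, so no interval for counting error is given.

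Computed here with Python 3.11.15, numpy 2.4.6, pandas 2.3.3 and scipy 1.17.1 were counts of genes with the deposited adjusted p-value under 0.05, levels per kb of exon (GENCODE M21), differences between microenvironments, lists and sequence comparisons. Recomputing the adjusted p-values moved them by at most 6.31e-15. All 10 genes are named; of each list, up to 5 genes with an adjusted p under 0.05 and a log2 change of at least 1 in some table, by size; of the markers, the highest and lowest; and the 3 genes nearest to Gsta4 and Gstm2. Other genes, where named, were chosen after their values were seen. An item of the lists is not reported here. The genes and lists were chosen with earlier results of these data known. RefSeq matched 93.0% of gene identifiers. Alternatives were other thresholds, filters, null spreads, centring and ratios from base means.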

Additional observations from a re-analysis of the deposited data

Results flagged for a closer look

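Gsta1 differed between Fibrin and Collagen by -2.11 on the log2 scale in the test of the difference between the authors' deposited tables, at base means of 15.6 and 93.3. Gsta3 differed between Fibrin and Printed by 2.08 in the same test, at base means of 147 and 45.8. Both genes were among the least abundant of the 10, and both had a ratio from base means that moved by over 1 SE in Fibrin or Printed.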

How the results depend on the processing

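No paired analysis was possible because the tables hold no values of single libraries, although the replicates of the 5 conditions share passages; for the same reason leaving out a replicate was not run. Of the 10 genes, 6 passed in Matrigel, and 3 did (Gsta4, Gstm1, Gstm2) with the null spread taken from the interquartile range of the Wald scores. Over all genes the counts of 928, 1215, 1570 and 481 in Matrigel, Fibrin, Collagen and Printed became 373, 336, 146 and 270 with that spread, 539, 724, 887 and 256 at an adjusted p under 0.01, and 323, 610, 717 and 228 with a log2 change of at least 1. In Fibrin the count stayed within 1.5 times of 2 in each alternative run. In Collagen it was 2 as reported, 4 at an adjusted p under 0.1 and 1 with base means of 100 or more only, where Gsta1, below that level, is not tested. In Printed it was 2 as reported and 1, without Gsta1, at an adjusted p under 0.01, with the null spread, and with base means of 100 or more only. Of the 48 differences between microenvironments, 2 passed as reported, 5 with squared standard errors divided by 2, 5 with the null spread, 1 at an adjusted p under 0.01 and 0 with base means of 100 or more only. Subtracting the median over genes whose base mean reached 100, 0.01 to 0.04 on the log2 scale, left each of 40 fold changes within 1 SE; ratios from base means moved 11 of 38 by more, and gave none for Gstm4 in Matrigel and Collagen. The depth of single libraries is unknown, so what it limits was not tested. Stricter thresholds and filters test fewer genes or call fewer by construction; for the null spread and the base-mean ratios the cause was not tested.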
